A study of Mus musculus with 2 samples.

Results

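Coding transcripts longer than 200 kilobases (kb) were taken from a table of exon and intron values of wild-type mouse embryonic stem cells. A member is a protein-coding transcript that has an intron value in the table and whose span, from transcript start to end in GENCODE M21 on GRCm38, exceeds 200000 bases. The rule gave 2313 transcripts of 947 genes, out of 46833 coding transcripts and 91702 transcripts of all kinds with an intron value. The cells were XY stem cells of the line DTCM23/49, freed of feeder cells and grown with serum and leukemia inhibitory factor. They were given 200 µM 4-thiouridine (4sU), a uridine analogue that enters new RNA, for 10 min. RNA that carried 4sU, called labeled RNA, was separated from RNA that did not, called unlabeled RNA, and each was sequenced as 1 library of biological replicate 1. One label names the second library total RNA and another names it preexisting RNA. The study's methods treat it as unlabeled RNA, and so does the text below. With 2 libraries and no replicates there is no test, and the values describe this pair of libraries. Transcripts are not replicates of a condition, and the transcripts of 1 gene share reads.

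RNA polymerase II moves along a gene at a few kilobases per minute, so copying one of these genes from end to end takes far longer than the 10 min pulse. A labeled RNA of such a gene is then either a molecule still being made or one whose synthesis began before the pulse and ended within it. Most of the length of a long gene is intron, introns are removed while the polymerase is still at work, and some very long introns are removed in pieces. Long genes are frequent among the genes of neuronal adhesion and synapses, and several of the longest lie at common fragile sites, stretches of chromosome that break when replication is slowed.

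The deposited values are relative abundances per base, so exon and intron values of a transcript can be set against each other and levels of different transcripts can be compared. They are called TPM, a scale of relative abundance, but are 10 times larger than that scale, and "value" means this deposited unit throughout. Read depth is unknown, so no counting error can be given. The stem cell markers Pou5f1, Nanog, Zfp42, Esrrb, Tdgf1, Dppa5a, Utf1 and Tfcp2l1 had summed exon values of 100.8 to 6384 in labeled RNA and 72.9 to 10030.6 in unlabeled RNA. The 6 fibroblast markers lay between 0 and 14.5 and the 5 primitive endoderm markers between 0 and 8.44 over both libraries, with Col3a1, S100a4, Pdgfrb, Gata6 and Sox17 at 0. Of the 5 neural markers, Pax6 had 137.8 in labeled and 151.4 in unlabeled RNA, Tubb3 had 132.7 and 156.9, and Map2, itself a gene with a long transcript, had 39.1 and 169.0, while Sox1 had 0.76 and 1.56 and Neurod1 had 8.24 and 31.5. What part cells of neural character have in the values of long neuronal genes was not tested.

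The start sites of these genes are shown first because their content of CG dinucleotides, the mark of CpG island promoters, differed between long genes with and without exon signal. Each sequence is the 250 bases before the start site of the RefSeq promoter nearest to the transcript's start (RefSeq, GRCm38.p6), printed 5′ to 3′ on the strand of the gene, with CG dinucleotides in capitals. The first set holds the 3 matched members with the highest exon value, which are Mid1 (chrX:169684949-169685198, plus strand), Msi2 (chr11:88718230-88718479, minus strand) and Ap3b1 (chr13:94358710-94358959, plus strand).
Mid1: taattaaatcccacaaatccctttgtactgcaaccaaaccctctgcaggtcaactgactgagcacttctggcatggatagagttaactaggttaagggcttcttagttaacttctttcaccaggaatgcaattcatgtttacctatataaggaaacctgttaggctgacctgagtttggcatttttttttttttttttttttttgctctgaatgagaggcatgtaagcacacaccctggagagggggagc
Msi2: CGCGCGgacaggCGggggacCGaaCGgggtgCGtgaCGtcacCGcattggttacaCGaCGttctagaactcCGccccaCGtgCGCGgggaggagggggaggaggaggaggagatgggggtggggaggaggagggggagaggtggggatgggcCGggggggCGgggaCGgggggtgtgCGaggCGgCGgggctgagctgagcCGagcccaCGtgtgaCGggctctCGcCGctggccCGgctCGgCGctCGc
Ap3b1: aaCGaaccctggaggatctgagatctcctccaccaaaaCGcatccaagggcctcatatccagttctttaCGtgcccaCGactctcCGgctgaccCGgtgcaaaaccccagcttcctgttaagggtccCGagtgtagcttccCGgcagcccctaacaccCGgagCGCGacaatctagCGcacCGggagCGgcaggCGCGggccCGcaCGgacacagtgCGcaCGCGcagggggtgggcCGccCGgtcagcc

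The second set holds the 3 longest matched genes whose long transcripts all had an exon value of 0 in both libraries, which are Lsamp (chr16:39984114-39984363, plus strand), Ctnna3 (chr10:63429848-63430097, plus strand) and Gpc5 (chr14:115091965-115092214, plus strand).
Lsamp: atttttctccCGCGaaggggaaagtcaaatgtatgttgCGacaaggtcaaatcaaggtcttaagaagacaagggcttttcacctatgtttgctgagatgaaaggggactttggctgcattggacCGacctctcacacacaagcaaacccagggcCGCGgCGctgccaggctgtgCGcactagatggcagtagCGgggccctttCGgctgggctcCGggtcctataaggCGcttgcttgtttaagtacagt
Ctnna3: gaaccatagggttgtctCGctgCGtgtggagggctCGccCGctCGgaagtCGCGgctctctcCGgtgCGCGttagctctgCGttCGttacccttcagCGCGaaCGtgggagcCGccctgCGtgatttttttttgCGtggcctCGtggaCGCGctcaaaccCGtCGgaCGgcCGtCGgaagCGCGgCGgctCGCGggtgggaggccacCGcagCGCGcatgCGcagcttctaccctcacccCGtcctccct
Gpc5: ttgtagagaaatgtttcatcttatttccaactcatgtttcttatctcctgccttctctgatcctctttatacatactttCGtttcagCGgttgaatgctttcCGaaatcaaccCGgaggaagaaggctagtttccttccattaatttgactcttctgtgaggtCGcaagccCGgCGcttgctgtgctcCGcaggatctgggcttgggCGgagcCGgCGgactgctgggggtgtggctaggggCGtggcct

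Mid1 has 0 CG dinucleotides in this window, Msi2 has 30 and Ap3b1 has 23, while Lsamp has 12, Ctnna3 has 36 and Gpc5 has 12. The order of these single genes therefore does not follow their exon values. Over all genes a difference was seen. Of the 528 genes with a long transcript past the expression filter described below, 327 had a RefSeq start within 500 bases, and their windows held a median of 18 CG dinucleotides (quartiles 10 and 27). The 65 matched of the 109 genes whose long transcripts were all at an exon value of 0 held a median of 9 (quartiles 4 and 16). All 32851 RefSeq windows held a median of 6 (quartiles 2 and 16). At least 10 CG dinucleotides were present in 76.5% of the windows of expressed long genes, in 46.2% of those at 0 and in 37.8% of all windows. The set of all windows was not limited by expression or gene length. These shares therefore do not set long genes apart from shorter expressed ones. Among the expressed genes the median was 18 both for those with a mean exon value of at least 10 and for those under 10. The motif TATAAA, searched on the gene's strand, was present in 7 of the 327 windows (2.14%), in 2 of the 65 (3.08%) and in 7.59% of all windows.

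A filter was then applied that required all 4 values of a transcript to exceed 0 and the mean of its 2 exon values to exceed 1. It was passed by 1256 member transcripts of 528 genes, among 31386 coding transcripts that passed. The other 1057 members did not pass, and 419 genes had no member that did. Exon values were 0 in both libraries for 341 members, in unlabeled RNA alone for 225 and in labeled RNA alone for 98. Intron values were present even there. Every member had an intron value above 0 in unlabeled RNA, and 2312 of the 2313 did so in labeled RNA. In the 341 members with exon values of 0, the median intron value was 3.33 when labeled, with quartiles 2.03 and 4.83, and 1.31 when unlabeled, with quartiles 0.72 and 1.88. The 3 long transcripts of Gpc5, which encodes a cell surface heparan sulfate proteoglycan, had intron values of 7.56 to 10.02 in labeled RNA and 2.54 to 3.32 in unlabeled RNA. The 3 of Lsamp, a neuronal adhesion gene, had 1.59 to 2.38 and 0.52 to 0.81. A gene listed at an exon value of 0 was thus not without signal over its body, and whether that signal comes from the gene's own strand cannot be told from these values.

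The 1256 expressed members had a median span of 292624 bases, against 20805 bases for the 30130 shorter coding transcripts. Taking for each gene the member with the highest mean exon value, exons made up a median of 1.47% of the span, against 11.8% in the 12375 genes with shorter transcripts. The longest intron alone took up a median of 34.7% of the span (quartiles 24.2 and 49.7), close to the 36.3% of the shorter transcripts. It was the first intron in 196 of the 528 genes (37.1%), compared with 44.6% of the genes with shorter transcripts. The mean exon value had a median of 11.6 in the members and 24.8 in the shorter transcripts, so long transcripts were on the whole at lower levels.

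Because introns are so much longer than exons here, they dominated the RNA of these genes. Multiplying each value by its length gives an estimate of where the sequenced fragments came from. By this estimate, introns gave 97.9% of the fragments of the 2313 members in labeled RNA and 92.7% in unlabeled RNA. The introns of these members alone accounted for 13.0% of all exon and intron fragments when labeled and 9.99% when unlabeled, while their exons accounted for 0.274% and 0.792%. The median expressed member had 60.2 intron fragments per exon fragment in labeled RNA, where the shorter transcripts had 5.16. In unlabeled RNA the medians were 12.7 and 1.03.

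The intron to exon ratio, the intron value divided by the exon value in the same library, had a higher median in long than in shorter transcripts in both libraries, a difference that did not hold at every exon level. In labeled RNA the median was 0.807 over the 1256 members (quartiles 0.459 and 1.49) and 0.563 over the 30130 shorter transcripts (quartiles 0.285 and 1.097). The corresponding medians for the unlabeled library were 0.161 (quartiles 0.0716 and 0.417) and 0.109 (quartiles 0.0438 and 0.300). As many introns as exons per base, or more, were found in labeled RNA in 499 members (39.7%), beside 28.2% of all 31386 coding transcripts that passed. The unlabeled ratio reached or exceeded the labeled ratio in 75 members (5.97%), beside 7.82% of all.

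**Figure D1:**
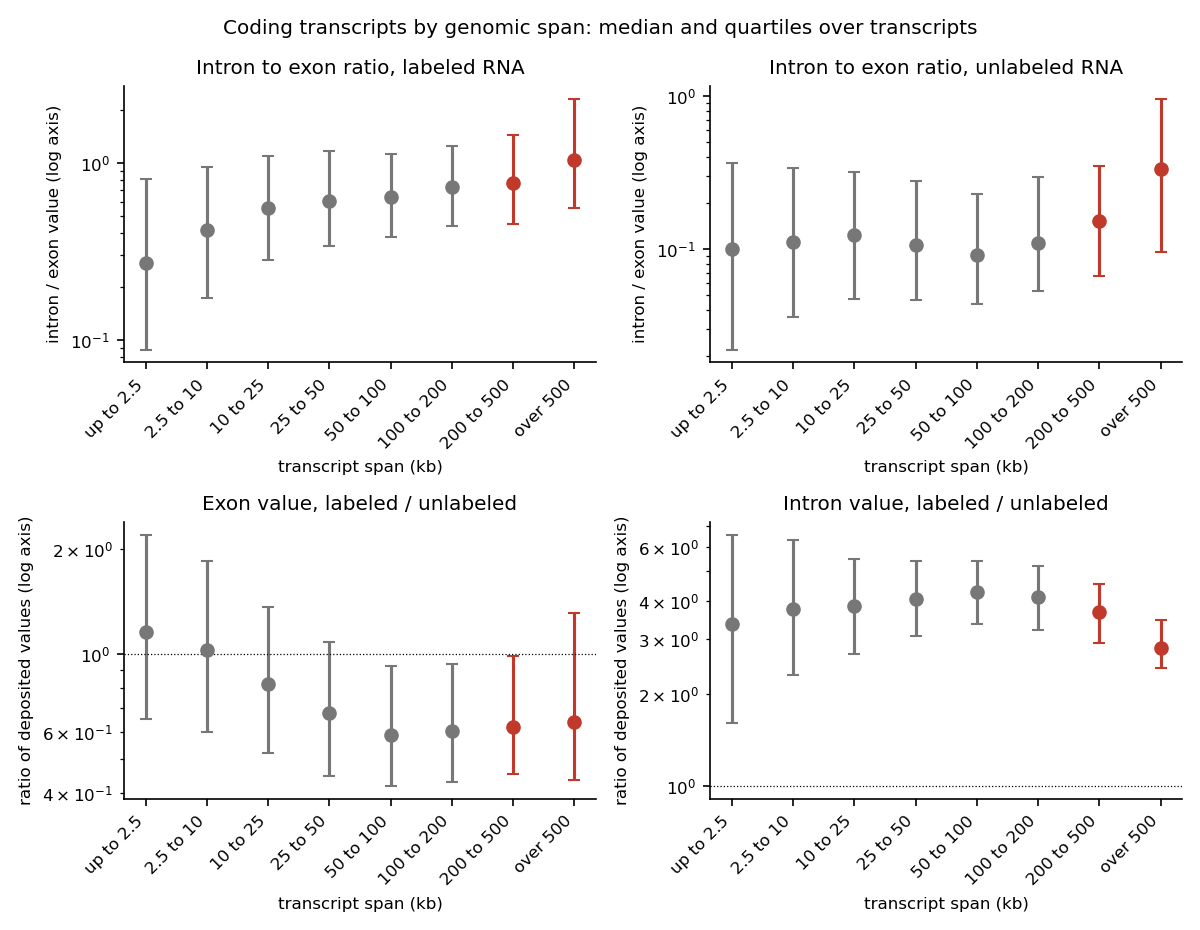
Medians (points) and quartiles (bars) over coding transcripts that passed the filter, in 8 classes of span in kb (x axis), for the intron to exon ratio in labeled and in unlabeled RNA and for the labeled to unlabeled ratio of exon and of intron values (y axes, log scale); the classes over 200 kb are red and dotted lines mark equal values. The labeled ratio goes up from 0.272 in the shortest class to 1.04 over 500 kb, and the intron ratio between libraries is highest at 50 to 100 kb, with 4.29.

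The labeled ratio went up through every class of span, and the unlabeled ratio did not. From the shortest class, up to 2.5 kb, to the class of 100 to 200 kb, the median labeled ratio went from 0.272 to 0.729. It was 0.775 in the 1087 members of 200 to 500 kb and 1.04 in the 169 members over 500 kb. The unlabeled ratio lay between 0.0916 and 0.123 in the classes up to 200 kb and was 0.152 and 0.335 in those above. Exon levels differ between these classes too: the median mean exon value was 13.3 in the members of 200 to 500 kb and 4.12 in those over 500 kb, against 20.97 to 31.5 in the classes below. The 28 members over 1000000 bases, from 15 genes, had a median labeled ratio of 1.29, an unlabeled ratio of 0.488 and a mean exon value of 2.76.

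Among members, the ratio was more closely correlated with level than with span. Over the 1256 members, Spearman's correlation of the labeled ratio with the mean exon value was -0.73, and with span it was 0.14. For the unlabeled ratio the values were -0.76 and 0.19. The exon value is part of both the ratio and the level, and transcripts of a gene share reads, so these correlations describe the table and have no p-value. Members were also chosen by span, which narrows its range. The quartiles of span were 233333 and 394855 bases, and those of the mean exon value were 3.73 and 35.4. The correlations therefore cannot rank level against span. Within bands of the mean exon value the difference between the medians was smaller, except in the lowest band. The bands do not match level fully. The median mean exon value was 3.44 in members and 4.125 in shorter transcripts from 1 to 10, and 17.5 and 17.9 from 10 to 30. It was 48.2 and 52.1 from 30 to 100, and 149 and 200 above 100. Between 1 and 10 the median labeled ratio was 1.53 in 583 members and 1.20 in shorter transcripts. Between 10 and 30 it was 0.751 in 307 members and 0.689, between 30 and 100 it was 0.438 in 309 members and 0.450, and above 100 it was 0.274 in 57 members and 0.230. The unlabeled ratio was higher in members from 1 to 10, with 0.418 against 0.357, and above 100, with 0.0357 against 0.0306. It was lower in members from 10 to 30, with 0.136 against 0.143, and from 30 to 100, with 0.0611 against 0.0748. A labeled ratio of at least 1 was more frequent in members only in the lowest band, with 71.0% against 57.7%. Between 10 and 30 it was 23.8% against 29.3%, and between 30 and 100 it was 3.88% against 10.9%. With a mean exon value above 10 required, the order of the overall shares turned, to 12.6% of members and 14.6% of shorter transcripts.

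**Figure D2:**
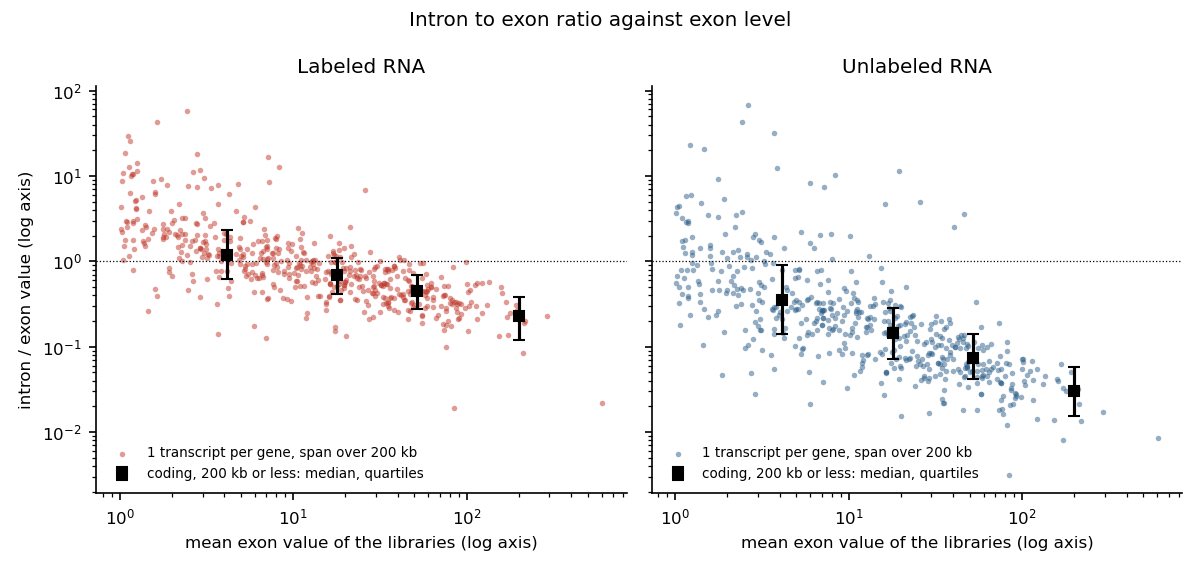
Intron to exon ratio (y axis, log scale) against the mean exon value of the libraries (x axis, log scale) in labeled RNA (left) and unlabeled RNA (right), with 1 point for each of the 528 genes with an expressed transcript over 200 kb; black squares and bars are medians and quartiles of coding transcripts of 200 kb or less in 4 bands of the mean exon value, and the dotted line marks equal intron and exon values. The points of long genes run along the squares of the shorter transcripts, with the ratio falling as the exon value goes up.

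Exon values of long transcripts were lower in labeled than in unlabeled RNA. The median labeled to unlabeled exon ratio was 0.621 over the members (quartiles 0.454 and 1.01) and 0.764 over the shorter transcripts. It was at least 2-fold lower in labeled RNA in 396 members (31.5%), beside 26.8% of all coding transcripts, and at least 2-fold higher in 102 (8.12%), beside 13.9%. Each library is scaled to its own total, so a ratio between libraries is relative to the other RNAs in them. The exon ratio went down from 1.16 in the shortest class of span to 0.585 at 50 to 100 kb, and was 0.604 at 100 to 200 kb, 0.619 at 200 to 500 kb and 0.639 over 500 kb. Past 50 kb it thus changed little with span.

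Intron values went the other way. They were at least 2-fold higher in labeled RNA in 1158 members (92.2%), beside 89.0% of all coding transcripts. The median labeled to unlabeled intron ratio was 3.52 over the members (quartiles 2.79 and 4.44) and 4.01 over the shorter transcripts (quartiles 2.82 and 5.54). It went up with span to 4.29 at 50 to 100 kb and then down to 3.68 at 200 to 500 kb and 2.82 over 500 kb. Among members its Spearman correlation was -0.38 with the length of the longest intron, -0.31 with span and 0.42 with the mean exon value. Within bands of level the ratio past 500 kb was lower in the lowest band and from 30 to 100, and differed little from 10 to 30. Between 1 and 10 the median intron ratio was 2.60 in the 104 members over 500 kb, 3.11 in all members and 3.68 in shorter transcripts, and between 30 and 100 it was 3.43 in 27 members over 500 kb, 4.24 in all members and 4.14 in shorter transcripts. From 10 to 30 it was 3.57 in 33 members over 500 kb, 3.68 in all members and 4.03 in shorter transcripts. Above 100 the 5 members over 500 kb, from 3 genes, had a median of 6.26.

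Numbers of exons and span were not the same property. The 171 expressed members with 35 or more exons had a median labeled ratio of 0.666 and an unlabeled ratio of 0.104. The 550 transcripts with as many exons but a span of 200 kb or less had 0.466 and 0.0567, and the 1085 members with fewer exons had 0.832 and 0.171. The median mean exon values of these sets were 14.9, 32.9 and 11.2, so the sets differ in level as well. The intron ratio between libraries was 3.98, 4.10 and 3.46. Thymidine content, the share of bases at which 4sU can enter, was alike in spliced members and shorter transcripts, with medians of 23.7% in both. The number of such places also depends on length, and the median spliced lengths were 4249 and 2134 bases. Intron sequence was not counted.

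The limit of 200000 bases marks no step. The 191 expressed transcripts between 200000 and 220000 bases had a median labeled ratio of 0.725, an unlabeled ratio of 0.135 and an intron ratio between libraries of 4.09. The 223 between 180000 and 200000 bases had 0.748, 0.128 and 4.02. By the transcript with the highest mean exon value of each gene, the nearest genes inside were Pcbp3 (200028 bases), with exon values of 8.27 in labeled and 13.5 in unlabeled RNA and intron values of 15.1 and 2.59, and Raet1e (200221 bases), with 26.2 and 33.4 and with 12.3 and 6.19. Among genes with no expressed member, the nearest outside by the same choice were Atp9b (199843 bases), with exon values of 16.8 and 13.4 and intron values of 16.9 and 4.54, and Morc1 (199664 bases), with 90.8 and 96.2 and with 18.01 and 4.92.

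The 6 genes with the highest exon values encode a ubiquitin ligase, an RNA-binding protein, a sorting adaptor, a cohesin subunit, a SUMO ligase and a transcription factor. Mid1, a microtubule-associated ubiquitin ligase whose mouse gene crosses the boundary of the pseudoautosomal region, led them. Its transcript ENSMUST00000112104 (chromosome X, 169685199 to 169990798, plus strand, 10 exons) had an exon value of 714 in labeled and 499 in unlabeled RNA and intron values of 15.7 and 4.24. Its intron to exon ratio was therefore among the lowest, with 0.0220 in labeled and 0.00849 in unlabeled RNA. A coding Mid1 transcript of 11348 bases had higher exon values, 1023.7 in labeled and 686.5 in unlabeled RNA, and ratios of 0.143 and 0.0882. How reads were divided between the Mid1 transcripts cannot be told from these values. Msi2, an RNA-binding protein of the Musashi family (ENSMUST00000092794, chromosome 11, 88343889 to 88718101, minus strand, 14 exons), had exon values of 127 and 455 and intron values of 29.0 and 7.74. Its exons were thus 0.280 times as high in labeled as in unlabeled RNA while its introns were 3.75 times as high.

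The other 4 genes had labeled intron values between 19.4 and 31.0, within the range of 6.51 to 47.1 over the 57 members with a mean exon value above 100. Ap3b1, a subunit of the AP-3 adaptor of lysosomal sorting (ENSMUST00000022196), had exon values of 136 in labeled and 299 in unlabeled RNA and intron values of 27.1 and 4.04. Stag1, a subunit of cohesin (ENSMUST00000129269), had exon values of 142 and 284 and intron values of 26.7 and 6.03. Tead1, a transcription factor of the Hippo pathway (ENSMUST00000106638), had exon values of 115 and 275 and intron values of 31.0 and 7.84. These 3 were lower in labeled RNA over exons and 3.96 to 6.70 times as high over introns. Nsmce2, a SUMO ligase of the SMC5/6 complex (ENSMUST00000079703), differed in that its exon value was higher in labeled RNA, with 231 against 189, beside intron values of 19.4 and 6.06.

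**Figure D3:**
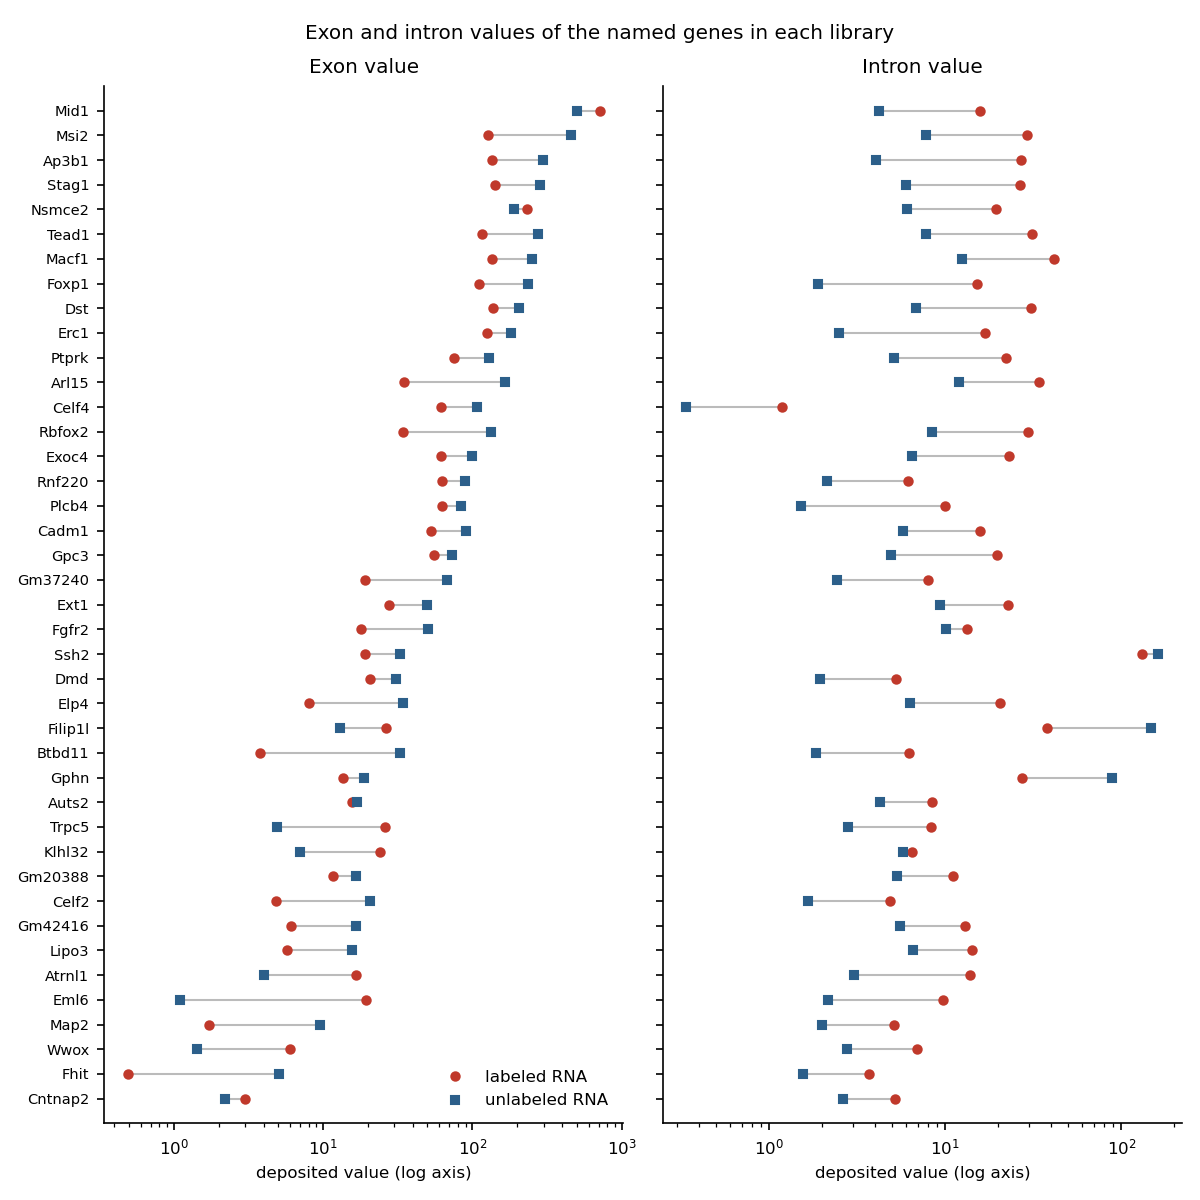
Exon values (left) and intron values (right) of 41 named long genes in labeled RNA (red circles) and unlabeled RNA (blue squares), on a log x axis in the deposited unit, ordered from the highest to the lowest mean exon value; each point is 1 library. Intron values lie to the right in labeled RNA in all but Ssh2, Filip1l and Gphn, while exon values are mostly higher in unlabeled RNA.

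The longest spans of expressed genes belonged partly to transcripts that join neighbouring genes. Gm20388 (chromosome 8, 119910841 to 124345722, 16 exons, 4434882 bases) had exon values of 11.6 in labeled and 16.7 in unlabeled RNA and intron values of 11.1 and 5.36. All of its exon bases are also exons of other genes, 186 genes lie within its span, and its first intron alone is 4384418 bases long. Gm37240 (1391091 bases) shares 98.2% of its exon bases with other genes. The member of Fgfr2, a fibroblast growth factor receptor, runs over 2960900 bases with an intron of 2908817 bases. It had exon values of 17.9 and 50.1 and intron values of 13.3 and 10.1, so that its introns were only 1.31 times as high in labeled RNA. It holds 44 other genes. The exon signal of nested genes can be spread over the intron bases of the long transcript as a load. This load was 3.18 in labeled and 3.55 in unlabeled RNA for Fgfr2, and 7.08 and 7.42 for Gm20388. It comes from the exon values of the nested genes and is not a measured part of the intron value. For Gm20388 in unlabeled RNA it exceeded the whole intron value of 5.36. In all, 12 of the 528 genes shared at least 10% of the exon bases of their leading member with another gene.

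The leading members of Dmd and Cntnap2 share no exon bases with another gene on the same strand. Dmd, which encodes dystrophin (ENSMUST00000114000, chromosome X, 82948903 to 85206141, plus strand, 79 exons, 2257239 bases), had exon values of 20.5 in labeled and 31.0 in unlabeled RNA and intron values of 5.27 and 1.95. Its labeled ratio, 0.257, lay under that of the median member although only 2 genes had a longer leading member. Cntnap2, a neurexin-like adhesion protein (ENSMUST00000114641, 2244153 bases, 24 exons), had exon values of 2.99 and 2.20 and intron values of 5.18 and 2.65, a labeled ratio of 1.73. Its span holds 28 other genes, with a nested load of 0.150 in labeled and 0.824 in unlabeled RNA.

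Labeled intron to exon ratios of genes with a mean exon value of at least 10 ran from 0.0192 to 6.85. The highest was that of Ssh2, a cofilin phosphatase, whose introns held a nested gene described below. Elp4, a subunit of the Elongator complex, had exon values of 8.07 in labeled and 34.2 in unlabeled RNA and intron values of 20.6 and 6.34, a labeled ratio of 2.55. Lipo3, a member of a lipase family, had 5.72 and 15.5 over exons and 14.2 and 6.53 over introns, a labeled ratio of 2.49. Gm42416, whose exons all overlap other genes, had a labeled ratio of 2.13. In Elp4, Lipo3 and Gm42416 the unlabeled ratio was 0.186, 0.420 and 0.335, each well below the labeled one.

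At the low end, the intron signal itself was small or the exon signal large. Celf4, an RNA-binding regulator of splicing, had exon values of 61.5 in labeled and 107.6 in unlabeled RNA, and intron values of 1.18 and 0.34. Its labeled ratio of 0.0192 was the lowest, below that of Mid1. Nsmce2 followed with 0.0837. Rnf220, a ubiquitin ligase, had exon values of 62.5 and 88.6 and intron values of 6.15 and 2.13, a labeled ratio of 0.0984.

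Among genes with a mean exon value of at least 10, exons stood highest in labeled against unlabeled RNA in Eml6, Trpc5, Atrnl1 and Klhl32. Eml6, a microtubule-associated protein (ENSMUST00000058902), had exon values of 19.3 in labeled and 1.1 in unlabeled RNA, which is 17.6-fold, and intron values of 9.76 and 2.17. Trpc5, a cation channel, had exon values of 26.1 and 4.93 and intron values of 8.33 and 2.82. Atrnl1 and Klhl32 had exon ratios of 4.16 and 3.42. For Klhl32 the intron values, 6.47 and 5.77, hardly differed between libraries. At the other end of the same genes Btbd11 had exon values of 3.79 and 33.0, a ratio of 0.115, and intron values of 6.23 and 1.85. Arl15, a small GTPase, had exon values of 34.7 and 164.8 and intron values of 33.9 and 11.9. Celf2, a relative of Celf4, had exon values of 4.87 and 20.7, and Elp4 was again among these genes, with a ratio of 0.236. All 4 genes with low exon ratios kept higher introns in labeled RNA, by 2.85 to 3.37 times.

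In 24 members (1.91%), beside 2.59% of all coding transcripts, the intron value was higher in unlabeled than in labeled RNA. They include the leading members of 14 genes: Peak1, Cmss1, Ssh2, Filip1l, Gphn, Sntb1, F8, Slc4a4, Itga9, Mcc, A830018L16Rik, Pdzd2, Lhfp and Slc7a11. Peak1, a pseudokinase of the cytoskeleton, had intron values of 30.5 in labeled and 192 in unlabeled RNA beside exon values of 38.2 and 54.4. Gphn, which encodes gephyrin, the scaffold of inhibitory synapses, had intron values of 27.3 and 88.8 beside exon values of 13.6 and 18.9. Filip1l had 37.8 and 148 over introns, and 26.3 and 13.0 over exons, which gave it the highest unlabeled ratio of the genes with a mean exon value of at least 10, namely 11.4. Cmss1 had intron values of 34.8 and 127. Cmss1 and Filip1l lie on opposite strands of the same stretch of chromosome 16, from 57302000 to 57606846, where their introns overlap.

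**Figure D4:**
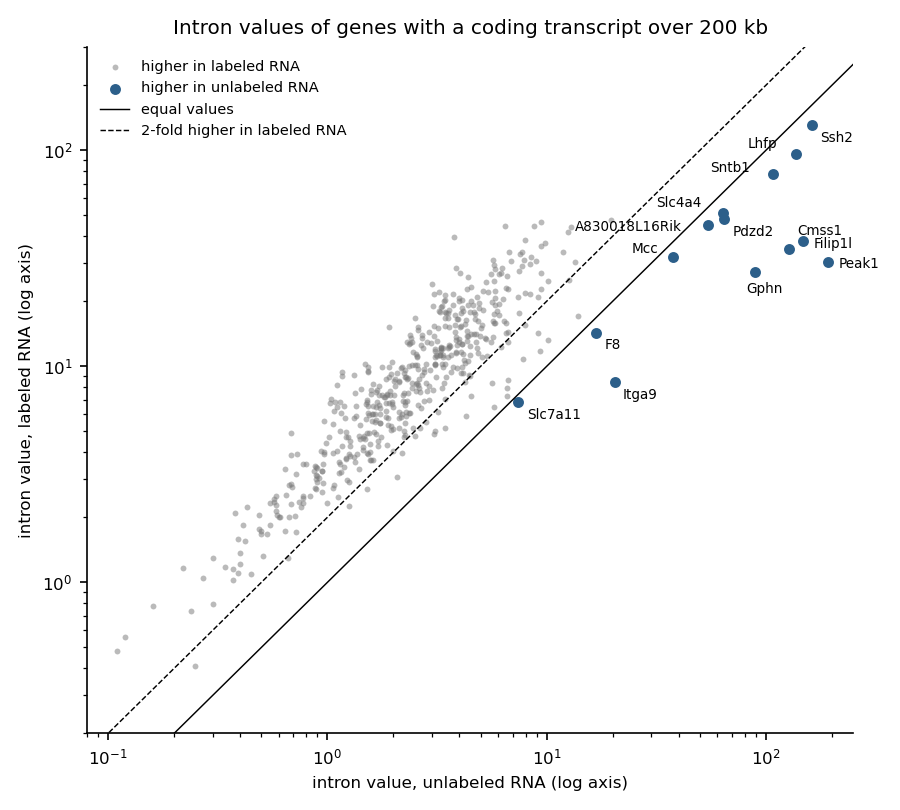
Intron value in labeled RNA (y axis) against unlabeled RNA (x axis), both on log scales in the deposited unit, for the leading transcript of each of 528 genes with an expressed coding transcript over 200 kb; the solid line marks equal values and the dashed line a 2-fold higher value in labeled RNA. The main cloud lies above the dashed line, and the 14 named genes below the solid line reach the highest intron values of unlabeled RNA.

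Nested genes carried signal of a like size in Ssh2 and Pdzd2 and not in most of the others. Ssh2 had intron values of 130 in labeled and 162 in unlabeled RNA. The exons of other transcripts within its span, mostly the gene Gm12346, carry enough signal to give 89.8 and 123.8 per intron base. For Pdzd2 the intron values were 47.9 and 64.5 and the nested load, mostly Gm2606, was 39.0 and 57.4. For Gphn, Filip1l, Sntb1 and Slc4a4 no other gene with a deposited value lies wholly within the span, and for Peak1 the load was 0.529 and 0.0360. The 268 expressed members with no such gene in their span had a median labeled ratio of 0.829, an unlabeled ratio of 0.161 and an intron ratio between libraries of 3.66. Over all 1256 members these were 0.807, 0.161 and 3.52. The median mean exon value was 8.83 in the 268 and 11.6 over all. What part nested genes have in the intron values was not tested.

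Long and short transcripts of 1 gene could be compared in 187 genes that had, besides an expressed member, an expressed coding transcript under 100 kb. The labeled ratio was higher in the long transcript in 104 of them, with medians of 0.600 and 0.539, and the unlabeled ratio in 114, with medians of 0.108 and 0.0882. The intron ratio between libraries was higher in the long transcript in 69, with medians of 3.63 and 4.21. In the 115 pairs in which both had a mean exon value of at least 10, the labeled ratio was higher in the long transcript in 61, with medians of 0.444 and 0.442. In these 115 pairs the unlabeled ratio was higher in the long transcript in 69, with medians of 0.0633 and 0.0609. The intron ratio between libraries was higher in the long transcript in 47, with medians of 3.96 and 4.28. Neither the long nor the short transcript was thus regularly higher in the labeled ratio. In the long one the unlabeled ratio was more often higher and the intron ratio between libraries more often lower. For Stag1, the long transcript had ratios of 0.188 in labeled and 0.0212 in unlabeled RNA and a transcript of 62073 bases had 0.210 and 0.0258. For Msi2, the ratios were 0.228 and 0.0170 in the long transcript and 2.47 and 0.399 in one of 32229 bases, whose exon values were 22.5 and 33.1. Introns of such transcripts overlap, and their reads are divided by the quantification.

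Genes of 8 functional lists, assembled with earlier results of these data known, were followed by their leading member. Expression of a long transcript was frequent in lists of general cell functions and infrequent in the list of synapse and neuronal adhesion genes. Of 83 synapse and neuronal adhesion genes with a member, 22 passed the filter (26.5%) and 18 had exon values of 0 in both libraries for every member. Over all 947 genes, 528 passed (55.8%) and 109 were at 0. In the list of membrane traffic and autophagy 32 of 35 passed, in RNA binding and mRNA metabolism 15 of 18, in transcription factors and chromatin 41 of 52, and in cytoskeleton, adhesion and junction 46 of 61. Kinases, phosphatases and phosphodiesterases passed in 31 of 53 genes, common fragile site genes in 14 of 22, and glycan and proteoglycan enzymes in 12 of 27.

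**Figure D5:**
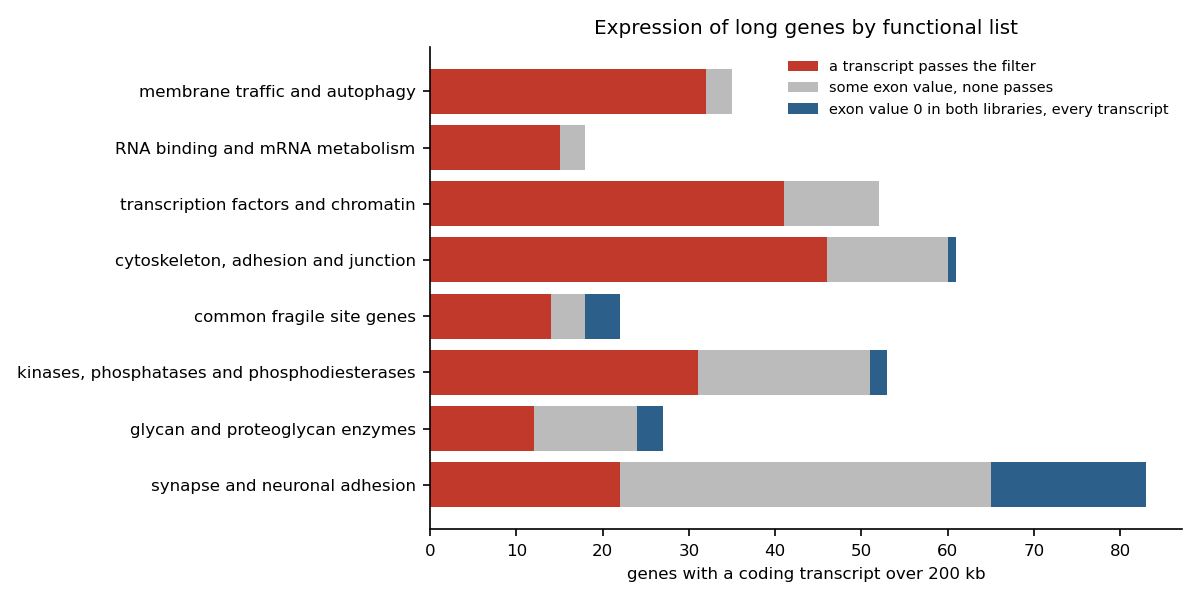
Number of genes with a coding transcript over 200 kb (x axis) in each of 8 functional lists (y axis), divided into genes with a transcript past the expression filter (red), genes with some exon value but none past the filter (grey) and genes whose long transcripts all had an exon value of 0 in both libraries (blue). Synapse and neuronal adhesion is the longest bar, with 83 genes, of which 22 passed and 18 were at 0.

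The synapse and neuronal adhesion genes that passed had low exon values, with a median of 5.35 against 12.6 over all 528 genes, and a median labeled ratio of 0.906 against 0.779. Cadm1, an adhesion molecule not limited to neurons, led with exon values of 52.4 in labeled and 90.5 in unlabeled RNA and intron values of 15.9 and 5.79. The cytoskeleton, adhesion and junction list was led by Macf1 and Dst, giant linkers of actin and microtubules. Macf1 had exon values of 135 and 249.5 and intron values of 41.7 and 12.5, and Dst had 137 and 206 and then 30.8 and 6.86. The Macf1 member, with 39 exons, is 1 of 116 expressed members whose models are marked incomplete in the annotation. A Macf1 coding transcript of 7410 bases had exon values of 186 and 435 and a labeled ratio of 0.0803, against 0.309 in the member.

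In the list of RNA binding and mRNA metabolism, exons were at least 2-fold lower in labeled RNA in 9 of 15 genes (60.0%), beside 151 of all 528 genes (28.6%). The median labeled to unlabeled exon ratio was 0.412 in this list and 0.643 over all. Msi2 and Celf4, described above, had the highest exon values in it. Rbfox2, a regulator of alternative splicing, had exon values of 34.1 in labeled and 133.5 in unlabeled RNA and intron values of 29.6 and 8.42. In the list of transcription factors and chromatin the same held for 18 of 41 genes (43.9%), among them Tead1 and Foxp1. Foxp1 (ENSMUST00000113329) had exon values of 110 and 235 and intron values of 15.1 and 1.90, an intron ratio between libraries of 7.96. It also held for 6 of 12 glycan and proteoglycan enzymes (50.0%), 10 of 22 synapse and neuronal adhesion genes (45.5%) and 13 of 31 kinases, phosphatases and phosphodiesterases (41.9%). The lower shares were 9 of 46 (19.6%) in cytoskeleton, adhesion and junction, 4 of 32 (12.5%) in membrane traffic and autophagy and 1 of 14 (7.14%) in common fragile site genes. The membrane traffic list was led by Erc1, a scaffold of vesicle docking, with exon values of 125 and 181 and intron values of 16.8 and 2.5, and by Exoc4, a subunit of the exocyst, with 61.6 and 99.5 and then 23.0 and 6.5.

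The glycan and proteoglycan enzymes had the highest labeled ratios of the lists, with a median of 1.60 and a ratio of 1 or more in 9 of 12 genes (75.0%), beside 205 of all 528 (38.8%). Their median exon value was 4.61, lower than in the other lists. Gpc3, a glypican, had exon values of 55.0 in labeled and 73.4 in unlabeled RNA and intron values of 19.6 and 4.93. Ext1, an enzyme that extends heparan sulfate chains, had exon values of 27.5 and 49.7 and intron values of 22.8 and 9.38. Of the signaling enzymes, Ptprk, a receptor tyrosine phosphatase, had 75.1 and 130 over exons and 22.3 and 5.13 over introns, and Plcb4, a phospholipase C, had 62.8 and 84.4 and then 9.94 and 1.53. In that list 15 of 31 genes had a labeled ratio of 1 or more.

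The common fragile site genes are the longest of the lists, with a median span of 729678 bases, and their introns differed less between libraries than those of all 528 genes. The median labeled to unlabeled intron ratio was 2.48 over the 14 that passed, with a range of 1.51 to 3.53, against 3.45 over all 528 genes. Other long members had values close to this. The median was 2.82 over the 169 members over 500 kb and 2.60 in the 104 of them with a mean exon value of 1 to 10. The median mean exon value of the list was 5.37. Exoc4 and Dmd had the highest exon values. Fhit, a diadenosine triphosphate hydrolase (903367 bases), had exon values of 0.49 in labeled and 5.09 in unlabeled RNA and intron values of 3.68 and 1.57, a labeled ratio of 7.51. Wwox, an oxidoreductase (278985 bases for its leading member), had exon values of 6.04 and 1.42 and intron values of 6.91 and 2.76. Fhit and Wwox thus had low exon values and an intron signal in both libraries, and over the 14 genes the labeled to unlabeled exon ratio ran from 0.0963 to 6.25. Auts2, a developmental regulator outside the fragile site list, had exon values of 15.7 and 16.8 and intron values of 8.42 and 4.25. Its leading member has 4 exons and is also marked incomplete. Jarid2, at 190373 bases, was not long enough to be a member.

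The study turns the pair of ratios of a transcript into a half-life of processing and a half-life of degradation, with a model in which precursor RNA is made at a constant rate and each molecule appears whole. A transcript is compatible with the model if its labeled ratio is below 1 and above its unlabeled ratio. This held for 727 members (57.9%), beside 66.7% of all coding transcripts that passed. By level, 25.2% of members with a mean exon value of 1 to 10 were compatible and 33.1% of shorter transcripts. The shares were 73.9% and 65.6% from 10 to 30, and 95.8% and 86.2% from 30 to 100. Above 100, all 57 members and 96.0% of shorter transcripts were compatible.

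The median processing half-life of the compatible members was 4.30 min (quartiles 2.87 and 9.32), and that of shorter transcripts was 3.86 min (quartiles 2.80 and 6.51). The median degradation half-life was 15.4 min (quartiles 8.39 and 36.6), against 19.1 min (quartiles 10.2 and 41.3). For 297 of the 727 members (40.9%) and 57.8% of compatible shorter transcripts the equations had no exact solution and the nearest point was used. The members solved exactly had medians of 7.72 min for processing and 24.6 min for degradation, beside 6.84 and 24.3 min in shorter transcripts. Those without an exact solution had 2.96 min and 11.03 min, beside 3.13 and 17.3 min. Whether an exact solution exists is set by the same pair of ratios, so this split cannot be weighed against span. For 84 of the 727 members (11.6%) there were 2 exact solutions, and the one nearest the median of transcripts with 1 solution was used. Within bands of level the processing half-life was longer in members from 1 to 10, with 7.95 against 5.62 min, and from 10 to 30, with 6.46 against 5.00 min. It was shorter from 30 to 100, with 3.30 against 3.92 min, and above 100, with 2.84 against 2.99 min. The degradation half-life was 17.4 against 17.8 min from 1 to 10 and longer in members from 10 to 30, with 20.6 against 17.96 min. It was shorter from 30 to 100, with 12.3 against 17.4 min, and above 100, with 17.1 against 22.5 min. A processing half-life of a few minutes is far shorter than the time needed to copy these genes, for which the model has no term.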

How the data were processed

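One labeled and 1 unlabeled library, made from wild-type stem cells given 4sU for 10 min, were used. After setting ribosomal reads aside, the authors used STAR (2.5.0 in the submitters' processing notes) and RSEM to estimate abundance separately over the exons and the introns of each transcript. The deposited signal is 1 exon and 1 intron value per transcript, called TPM, rounded to 2 decimals. Each column sums to 10 times a TPM total, and depth is unknown. Transcript models, nested genes and shared exon bases came from GENCODE M21 (GRCm38), which held 98.1% of the 91702 transcripts with an intron value, while the authors used Ensembl. The members, lists and named genes were chosen with earlier results of these data known. Named genes were, per gene, the member with the highest mean exon value, then the 6 highest of these, the 5 longest, the extremes of each ratio at a mean exon value of at least 10, the 2 highest of each list, and a set of preset genes; 2 of the genes so named are not reported here. Ratios and medians were computed without a test. Half-lives were solved on 4000 grid points. The solver was tested on simulated ratios without noise, only in the region where the study proves a single solution. That region holds 342 of the 727 compatible members (47.0%). The use of the nearest point and the choice between 2 solutions were not tested. Alternatives were no exon minimum, a minimum of 10, a pseudocount of 0.1, 1 transcript per gene, spans above 100000 and 500000 bases, subtraction of carried-over unlabeled RNA (0.142 times the unlabeled value) and an intron minimum of 0.1. Leaving out members with shared exon bases, or genes with introns higher in unlabeled RNA, was added after seeing the data. Promoter sequences were RefSeq's on GRCm38.p6. Splice site sequences are not analysed here. The computations ran in Python 3.11.15 with scipy 1.17.1, pandas 2.3.3 and numpy 2.4.6, and plots were drawn with matplotlib 3.10.9.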

Additional observations from a re-analysis of the deposited data

How the results depend on the processing

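No paired analysis was possible because each pool has 1 library. A value counts as moved below if it left the 95% interval of the main value over transcripts, which covers the number of transcripts and not measurement error. The interval treats transcripts as independent, although transcripts of 1 gene share reads, so it can be too narrow. The minimum of the exon value moved most values. Without it (1649 members) the median labeled ratio was 1.11, the unlabeled ratio 0.269, 53.4% had a labeled ratio of at least 1, 10.8% an unlabeled ratio at or above the labeled one, and the labeled to unlabeled ratios were 0.674 for exons and 3.26 for introns. With a mean exon value above 10 they were 0.521, 0.0827, 12.6%, 1.93%, 0.597 and 3.98, and the processing half-life was 3.87 min. With spans above 100000 bases the ratios were 0.751 and 0.126, the shares 35.9% and 4.52%, the intron ratio 3.90 and the degradation half-life 17.1 min. With spans above 500000 bases they were 1.04, 0.335, 51.5%, 10.7%, 2.82 and 17.6 min, with a processing half-life of 4.65 min. Subtraction of carried-over unlabeled RNA gave a labeled ratio of 0.977, a share of 49.0%, exon and intron ratios of 0.489 and 3.40 and half-lives of 18.9 min for degradation and 5.00 min for processing. The pseudocount gave an intron ratio of 3.33, and 1 transcript per gene a share of 7.58% with an unlabeled ratio at or above the labeled one. The other 46 values, among them all 16 of the alternatives added after seeing the data, stayed within the interval. Members had higher median ratios in both libraries than shorter transcripts without the exon minimum, with a minimum of 10 and with the pseudocount. The same held with the subtraction and with 1 transcript per gene, which in this comparison left 370 members and not 528. These settings do not match level, and within bands of level the order varied. Median ratios of members were higher in both libraries from 1 to 10 and above 100, and lower in both from 30 to 100. From 10 to 30 only the labeled ratio was higher. With no counts and 1 library per pool, neither the error of a single ratio nor a difference between genes of low exon value can be judged.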
